A study of Mus musculus with 24 samples.

Results

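The genes described here build the centromere and kinetochore, the structures by which a dividing cell grips its chromosomes, and the checkpoint that watches over that attachment. They were taken as the 33 members of a fixed list, each represented by the brightest array row (probe set) that named it and no other gene. In this way 28 of the 33 were measured, among 18819 genes tested in all. Hjurp, Oip5, Cenpk, Cenpo and Zwilch appeared only in rows that also named another gene and have no value here, and the gene listed as Casc5 carries its current name, Knl1. RNA came from ventricles of 24 mice of strain C57/Bl6 (C57BL/6J in the methods) hybridised to Affymetrix mouse arrays, with 6 arrays in each of 4 groups, wild type (WT) and knockout (KO) at the newborn and at the young stage. Newborn hearts were labelled as day 1 to 2 after birth and young hearts as day 30. The methods give a slightly earlier range for newborn hearts and a range that starts at day 30 for young hearts. KO mice lacked caspase-7 in the whole body and lost a floxed caspase-3 gene where Nkx2.5::Cre was active, in the cardiac lineage, so cardiac fibroblasts and other cells outside that lineage kept caspase-3. Both proteins are proteases best known as executioners of apoptosis. Whether the WT controls carried Cre or floxed alleles is not given in the sources used here. Both sexes were used but sex is not given for each array.

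A chromosome is held at its centromere, where nucleosomes carry the histone variant CENP-A in place of ordinary H3. On these nucleosomes sits the inner kinetochore, a set of proteins called the constitutive centromere-associated network (CCAN), and on it the outer KMN network that binds microtubules. Kinetochores without microtubules recruit the checkpoint kinases and Mad2, which delay anaphase, while the chromosomal passenger complex around Aurora B removes wrong attachments. Most of these genes are transcribed late in the cell cycle, so their RNA marks dividing cells. Mouse cardiomyocytes divide around birth, pass through a last round in which many become binucleate, and then largely leave the cycle, while endothelial cells and fibroblasts go on dividing for longer.

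Late cell-cycle promoters are known for short elements near the transcription start. They include the cell-cycle genes homology region TTTGAA or TTCGAA, bound by MuvB complexes, the CCAAT box bound by NF-Y, and the E2F-type element GCGGGAA. Both strands were searched for each of them in the 300 bases around each annotated start of the 24 measured members that have such a sequence in the RefSeq table for GRCm38.p6. For each of the 6 roles taken up here, the promoter of 1 member with a sequence in this table is shown. It is the member with the largest fall between newborn and young WT hearts. Of the passenger genes, Aurkb fell more than Cdca8 but has no sequence there. Cenpa is the only measured member of its role, and its fall did not pass. The promoters are shown from 150 bases before to 30 bases after the start. They lie at chr5:30666736-30666915 on the plus strand (Cenpa), chr15:82244307-82244486 on the minus strand (Cenpm), chr1:169531435-169531614 on the minus strand (Nuf2), chr3:135212413-135212592 on the plus strand (Cenpe), chr2:127831830-127832009 on the minus strand (Bub1) and chr4:124936888-124937067 on the minus strand (Cdca8). Capitals mark matches to the 4 elements in either orientation.
Cenpa: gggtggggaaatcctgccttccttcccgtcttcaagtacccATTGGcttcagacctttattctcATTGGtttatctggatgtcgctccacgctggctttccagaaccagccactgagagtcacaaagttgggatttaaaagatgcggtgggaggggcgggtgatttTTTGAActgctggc
Cenpm: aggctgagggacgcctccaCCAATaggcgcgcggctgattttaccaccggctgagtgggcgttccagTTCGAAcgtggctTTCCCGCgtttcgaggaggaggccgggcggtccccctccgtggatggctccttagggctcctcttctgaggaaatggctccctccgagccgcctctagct
Nuf2: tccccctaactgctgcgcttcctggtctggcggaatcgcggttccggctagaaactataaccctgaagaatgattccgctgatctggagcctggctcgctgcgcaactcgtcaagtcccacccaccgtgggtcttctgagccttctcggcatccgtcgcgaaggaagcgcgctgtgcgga
Cenpe: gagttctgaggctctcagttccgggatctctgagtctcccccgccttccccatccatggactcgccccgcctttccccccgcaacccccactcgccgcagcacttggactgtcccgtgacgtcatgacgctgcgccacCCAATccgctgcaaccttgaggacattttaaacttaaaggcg
Bub1: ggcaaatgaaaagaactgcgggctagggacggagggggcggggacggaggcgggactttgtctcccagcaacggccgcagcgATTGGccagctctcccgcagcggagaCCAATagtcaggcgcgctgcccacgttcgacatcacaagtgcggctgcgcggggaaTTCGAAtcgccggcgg
Cdca8: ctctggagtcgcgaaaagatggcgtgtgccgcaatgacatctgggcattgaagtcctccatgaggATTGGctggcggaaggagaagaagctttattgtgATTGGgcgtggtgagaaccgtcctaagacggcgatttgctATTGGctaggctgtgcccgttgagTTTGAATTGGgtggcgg

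TTTGAA was found in 13 of these 24 members, or 54.2%, against 20.2% of the 27025 genes with such a sequence. Within 50 bases of a start it was found in 12 members (50%) against 5.72% of all genes. In Cenpa and Cdca8 it lies in the sense direction just after the start, and in Cdca8 it runs into an antisense CCAAT, so that both share 1 base. TTCGAA was found in 3 members (12.5%, against 1.8% of all genes), among them Bub1 just after its start and Cenpm upstream of it. CCAAT was present in 16 members (66.7%, against 41.1%), and GCGGGAA in 4 (16.7%, against 5.29%). The Nuf2 stretch holds none of the 4, although the gene was among those with the largest changes with age. These matches describe the letters of the promoters, and binding was not measured.

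Values were log2 signals after RMA (robust multi-array averaging), so a difference of 1 is a change of 2-fold, and signals of different genes cannot be ranked against each other. The number of arrays sets the precision. A gene was called when limma, fitted to all 24 arrays with 1 mean per group, gave a Benjamini-Hochberg adjusted p under 0.05 over the 18819 genes. The 24 arrays were treated as separate hearts, and each p-value sets a difference of group means against the spread between them. No pair among 276 pairs of arrays held identical values, and the lowest correlation was 0.9596. Each newborn array was compared with its label by a score over 80 genes. These genes were called and did not overlap between young KO and young WT, and none was a member. The array labelled newborn WT 4 had a score of 0.161, against -0.231 to -0.035 in the other 5 newborn WT arrays. The array labelled newborn KO 4 had -0.194, against 0.0806 to 0.284 in the other 5, so both lay on the side of the opposite label. The counts and correlations that use newborn arrays are therefore given with and without these 2 arrays. The young groups behind the score also differed in tissue markers, with smooth muscle means of 7.48 in WT and 9.01 in KO. Newborn WT 4 had the highest smooth muscle mean of its group (8.76) and newborn KO 4 the lowest of its own (8.04). For atrial markers WT 4 was also the highest (9.59), while KO 4 (9.29) lay inside the range of its group. Whether the score read genotype or tissue make-up was not tested. Of the 6 cardiomyocyte markers, all were measured, and their mean signal was 12.1 to 12.3 in newborn and 11.6 to 11.8 in young hearts of both genotypes. The lower young mean came from Myh7, the myosin of the fetal mouse ventricle, at 11.32 in newborn and 6.99 in young WT. The means of the other 5 were equal or higher in young WT at this rounding, with Ryr2 at 10.93 and 11.71 and Tnnt2 at 13.04 at both ages.

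Averaged over the 28 genes, the newborn WT arrays had a mean signal of 6.34 ± 0.379 (SD, n = 6) and ran from 5.66 to 6.66. Newborn KO arrays had 5.72 ± 0.506 (SD, n = 6) and ran from 4.97 to 6.30. Young WT arrays had 4.65 ± 0.178 and young KO arrays 4.55 ± 0.187 (SD, n = 6 each), and all young arrays lay between 4.34 and 4.99. Newborn KO 6 at 4.97 was thus the only newborn array within the range of the young arrays, and newborn KO 5 followed at 5.29. Part of the young signal was low: the group mean lay below the median of all rows for 13 members in young WT and 15 in young KO, against 3 in newborn WT and 5 in newborn KO. Falls towards that level can be understated.

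**Figure D1:**
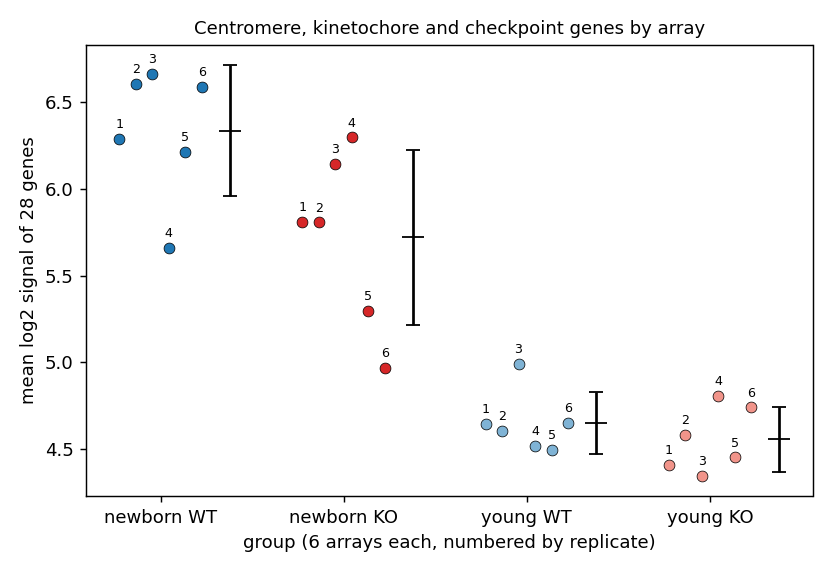
Mean log2 signal of the 28 measured genes (y axis) for each array of the 4 groups (x axis), numbered by replicate. The black bar is the group mean with its SD. Newborn WT 4 (5.66) was the lowest of its group and newborn KO 4 (6.30) the highest of its own, and all young arrays lay between 4.34 and 4.99.

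The first question was how these genes changed as the WT heart matured. In WT ventricles 26 of the 28 members fell between the newborn and the young stage and 0 rose, where 27.9% of all genes tested fell and 19.2% rose. The median log2 difference was -1.84, against 0.00 over all genes, and 23 members had young arrays that all lay below every newborn array, where 18.2% of all genes did. The falls were largest for the checkpoint kinases Bub1 and Bub1b, the passenger kinase Aurkb, the inner kinetochore gene Cenpm and the outer kinetochore gene Nuf2. Cenpa and Cenpf did not pass. In bulk tissue, fewer dividing cells and less RNA per cell cannot be told apart.

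Cenpa encodes the centromeric histone itself. Its signal was 7.13, 7.81 and 8.10 (lowest, median and highest) in newborn WT and 7.11, 7.42 and 7.64 in young WT. Newborn WT 4 was the lowest newborn array and lay inside the young range, and the other 5 newborn arrays were at 7.63 or above. The log2 difference was -0.36 (standard error 0.196, limma adjusted p = 0.136). Without the 2 newborn arrays numbered 4 it was -0.49 and passed, at an adjusted p of 0.0425.

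All 8 measured members from the inner kinetochore fell, by 0.55 (Cenpq) to 2.46 (Cenpm) on the log2 scale. Cenpm, a small GTPase-like subunit that joins Cenph, Cenpi and others in the network, read 6.42, 7.09 and 7.53 in newborn WT and 4.10, 4.62 and 5.11 in young WT. Every young array lay below every newborn array, and the change was 5.49-fold (log2 difference -2.46, standard error 0.238, limma adjusted p = 4.56e-09). Cenpn, which reads the CENP-A nucleosome, followed at -2.27, and Cenpi at -2.07. Cenpl, the partner of Cenpn, fell by 1.23, Cenph by 1.46 and Cenpt, which builds a second bridge to the outer kinetochore, by 1.47. Cenpp fell by 0.95 and its groups did not overlap either, whereas those of Cenpq did.

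All 5 members that belong to the outer KMN network fell as well, and none of their groups overlapped. Nuf2, one of the pair of head subunits by which the Ndc80 complex holds a microtubule, read 5.97, 6.81 and 7.18 in newborn WT and 4.00, 4.11 and 4.93 in young WT. That is 5.45-fold less in young hearts (log2 difference -2.45, standard error 0.281, limma adjusted p = 7.68e-08). Its partners in the complex were Ndc80 at -1.87, Spc25 at -2.43 and Spc24 at -1.05. The subunits of this one complex therefore did not fall by the same amount on the array. Knl1, the scaffold to which the Bub kinases bind, fell by 2.13.

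Among the members that couple kinetochores to microtubules, 3 of 4 fell. Cenpe, a kinesin motor that carries chromosomes to the spindle equator, fell by 2.22, and Ska3, of the Ska complex that keeps hold of shortening microtubules, had a difference of -2.20. Ska1, of the same complex, fell by only 0.51, with overlapping groups and newborn signals of 3.65 to 4.42 that were already under the median of all rows on average. Cenpf, a large protein of the outer corona, read 6.12, 6.59 and 6.99 in newborn WT and 5.72, 6.34 and 6.57 in young WT. These values overlapped, and its log2 difference of -0.36 did not pass (standard error 0.233, limma adjusted p = 0.213).

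All 6 measured checkpoint members fell. Bub1, a kinase that marks the inner centromere and recruits other checkpoint proteins, changed most of all 28. It read 6.24, 7.40 and 7.70 in newborn WT and 3.81, 4.23 and 4.42 in young WT, with a wide gap between the groups. The young signal was 8.37-fold lower (log2 difference -3.07, standard error 0.313, limma adjusted p = 1.17e-08). Bub1b, which encodes BubR1 of the complex that holds back the anaphase-promoting complex, read 6.91, 7.53 and 7.81 against 4.75, 4.86 and 5.57, a 5.66-fold fall (limma adjusted p = 1.51e-09). Ttk, the kinase Mps1 at the head of the checkpoint, fell by 1.87, Mad2l1, which encodes Mad2, by 1.82, and Kntc1, which encodes Rod of a complex that brings dynein to the kinetochore, by 1.66. Bub3, the partner of both Bub kinases, fell by only 0.51 and its groups overlapped.

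All 4 members from the chromosomal passenger complex fell, and their groups did not overlap. Aurkb, the Aurora B kinase, read 7.50, 8.42 and 8.86 in newborn WT and 5.34, 5.66 and 6.52 in young WT. It was 6.20-fold lower in young hearts (log2 difference -2.63, standard error 0.299, limma adjusted p = 6.23e-08). Cdca8, or borealin, fell by 2.07, Birc5, or survivin, by 1.67, and Incenp, the scaffold that activates the kinase, by 1.40.

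**Figure D2:**
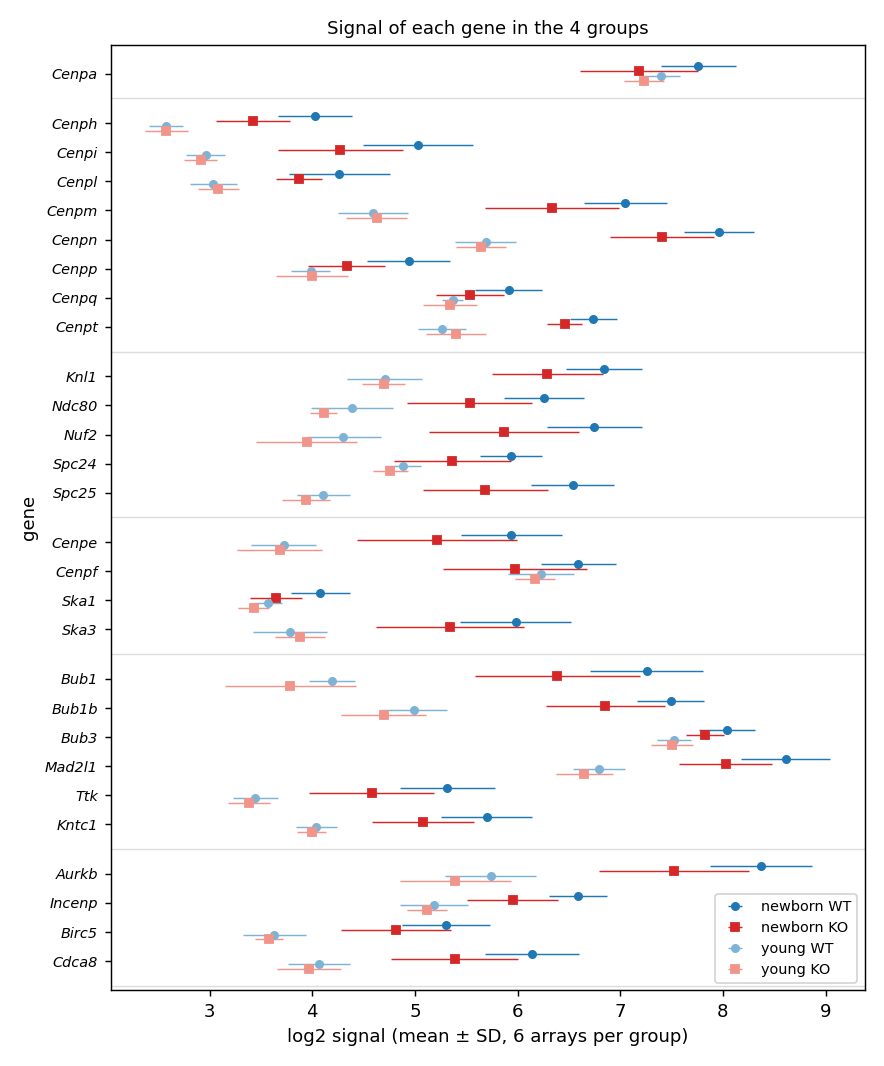
Mean log2 signal ± SD (x axis) of each of the 28 genes (y axis, in blocks by role) in the 4 groups of 6 arrays, with circles for WT and squares for KO. Levels are to be read within a gene, not between genes. Newborn means lie right of young means for nearly every gene, most widely for Bub1, and newborn KO lies left of newborn WT throughout.

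The same comparison was made in KO hearts. In KO ventricles 23 of the 28 fell and 0 rose, where 25% of all genes fell and 34% rose, with a median log2 difference of -1.30 against 0.10 over all genes. For 19 members every young KO array lay below every newborn KO array, where 15.1% of all genes did so. Bub1 again had the largest change, from 5.16, 6.61 and 7.24 in newborn KO to 3.01, 3.80 and 4.49 in young KO, or 6.07-fold (limma adjusted p = 1.94e-07). It was followed by Bub1b at -2.16, Aurkb at -2.13, Nuf2 at -1.92 and Cenpn at -1.76. All measured members with outer kinetochore, checkpoint and passenger roles passed in KO as in WT.

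The 5 members that did not pass in KO were Cenpa, Cenpf, Cenpp, Cenpq and Ska1. Cenpa read 6.44, 7.31 and 7.89 in newborn KO and 6.92, 7.24 and 7.46 in young KO, so the young arrays lay inside the newborn range. Its log2 difference was 0.05 (95% interval -0.353 to 0.456, limma adjusted p = 0.828). Cenpf read 5.00, 6.19 and 6.75 against 5.84, 6.18 and 6.42, with a difference of 0.19 (95% interval -0.287 to 0.674, limma adjusted p = 0.478). Cenpp, Cenpq and Ska1 had differences of -0.34, -0.20 and -0.22. Leaving out the arrays numbered 4 gave a count of 23 in KO, where 24.4% of all genes fell, and of 27 in WT, where 27.3% fell. Cenpf was then the member that did not pass in WT.

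**Figure D3:**
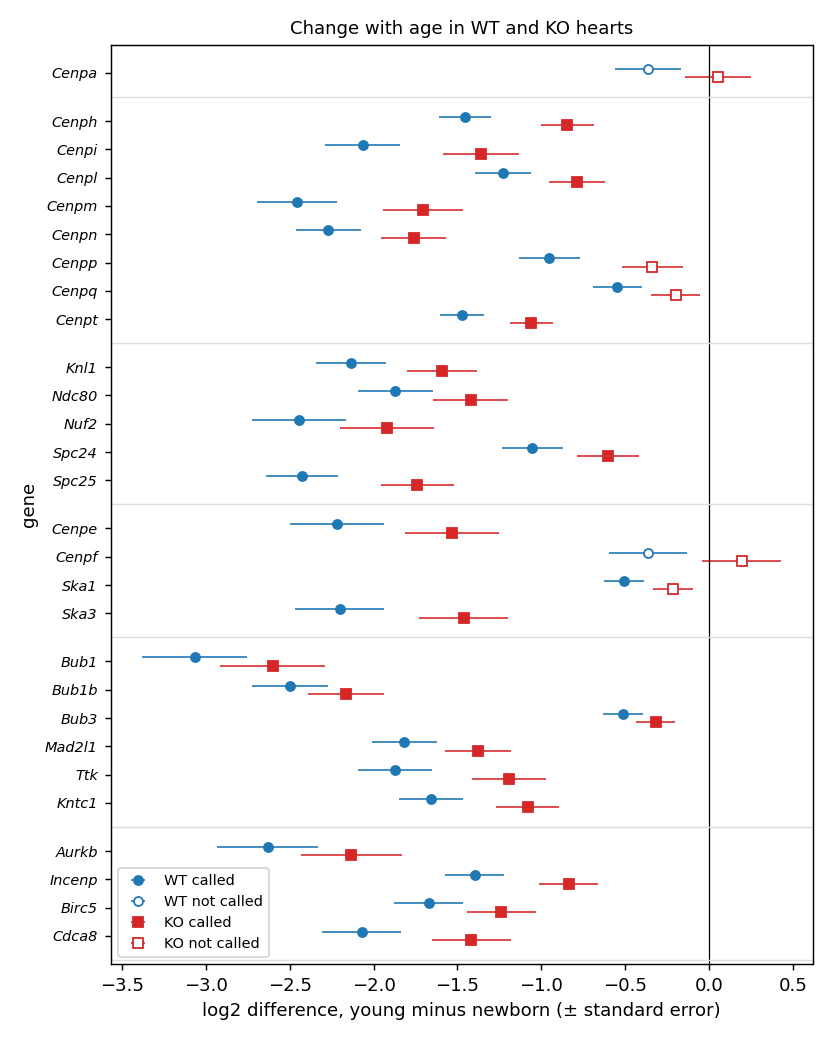
Log2 difference between young and newborn hearts ± standard error (x axis) for each gene (y axis, in blocks by role), in WT (circles) and KO (squares); filled symbols passed an adjusted p under 0.05. In WT 26 and in KO 23 of 28 genes are filled, with Bub1 farthest to the left and Cenpa and Cenpf open in both.

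Markers of other cell types were read over the same interval. The 5 fibroblast markers, all measured, had a mean signal of 9.44 to 9.62 in newborn WT and 7.75 to 9.23 in young WT, and of 9.29 to 9.85 and 7.85 to 9.46 in KO. The 5 leukocyte markers, all measured, read 6.55 to 6.78 in newborn WT and 7.16 to 7.62 in young WT, and the 5 endothelial markers, all measured, read 9.45 to 9.73 and 9.10 to 9.59. The 5 atrial markers had group means of 8.96 in newborn and 5.66 in young WT, and of 9.22 and 8.25 in KO. The 4 epicardial markers, all measured, had means of 7.86 and 5.99 in WT and of 8.13 and 6.96 in KO. The 4 smooth muscle markers were at 8.33 and 7.48 in WT and at 8.61 and 9.01 in KO. The part of these cells in the falls was not tested.

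The second question was whether loss of the caspases changed these genes in the newborn heart. The newborn KO mean lay below the newborn WT mean for 28 of 28 members, where 68.8% of all genes had a lower KO mean, and the median log2 difference was -0.62, against -0.05 over all genes. No member passed in limma, and 0% of all genes were called lower in this comparison. At an unadjusted p under 0.05, 27 members were lower and 0 higher, where 7.62% of all genes were lower. The exception was Bub3. The smallest adjusted p was 0.278 (Spc25), and no member had groups that did not overlap, against 0.436% of all genes. The members varied together between newborn hearts (median pair correlation 0.901 with group means removed, taken up below). Counts of members that use these arrays are therefore not counts of independent results.

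The differences ran from -0.88 (Nuf2) to -0.21 (Bub3), and each role took part. Cenpa read 7.57, 7.22, 7.89, 7.41, 6.56 and 6.44 in newborn KO 1 to 6 and 7.65, 8.07, 8.10, 7.13, 7.63 and 7.98 in newborn WT 1 to 6. KO 5 and KO 6 lay below every WT array, and WT 4 lay between them and KO 1 to 4. The log2 difference was -0.58 (95% interval -0.986 to -0.176, limma adjusted p = 0.402), or 1.5-fold lower in KO. Among the inner kinetochore genes Cenph differed by -0.60 (standard error 0.157, limma adjusted p = 0.302), with 2.91, 3.39 and 4.04 in KO and 3.33, 4.11 and 4.33 in WT. Cenpi had the largest difference among the inner kinetochore members, at -0.76, and Cenpt the smallest, at -0.28.

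In the outer kinetochore Spc25 read 5.61, 5.67, 6.30, 6.45, 5.17 and 4.90 in newborn KO 1 to 6 and 6.37, 6.85, 6.63, 5.85, 6.53 and 6.98 in newborn WT 1 to 6. KO 4 was the highest KO array and WT 4 the lowest WT array. The difference was -0.85 (95% interval -1.30 to -0.407), or 1.81-fold lower in KO. Ska1 differed by -0.44 (limma adjusted p = 0.336). In the checkpoint, Ttk differed by -0.74 (limma adjusted p = 0.351) and Bub1 by -0.87.

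Of the passenger genes, Aurkb read 6.47, 7.68 and 8.33 in newborn KO and 7.50, 8.42 and 8.86 in newborn WT, a 1.80-fold lower mean in KO (log2 difference -0.85, 95% interval -1.46 to -0.23, limma adjusted p = 0.411). Incenp read 5.28, 6.06 and 6.42 against 6.16, 6.63 and 6.91, a 1.55-fold lower mean (log2 difference -0.64, 95% interval -0.998 to -0.272, limma adjusted p = 0.336). Both sets of groups overlapped.

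The arrays numbered 4 weighed on this comparison. WT 4 was the lowest newborn WT array for 27 of the 28 genes, the exception being Cenpt, and KO 4 the highest newborn KO array for 23. KO 4 lay above WT 4 for 27. Without both arrays 26 of 28 members passed as lower in newborn KO, where 1.94% of all genes did, and the median difference was -0.87. Cenpt (adjusted p = 0.346) and Bub3 (adjusted p = 0.212) did not pass. For 14 members the remaining 5 KO arrays then all lay below the remaining 5 WT arrays, where 4.22% of all genes did. These figures leave out, for most members, the lowest WT and the highest KO value, which widens the difference by construction, and the labels alone do not settle which count holds. Cenph then reached -0.87 (adjusted p = 0.000222), Spc25 -1.14 (adjusted p = 0.0026), Aurkb -1.18 (adjusted p = 0.0305), Incenp -0.81 (adjusted p = 0.0136) and Cenpa -0.75 (adjusted p = 0.047).

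**Figure D4:**
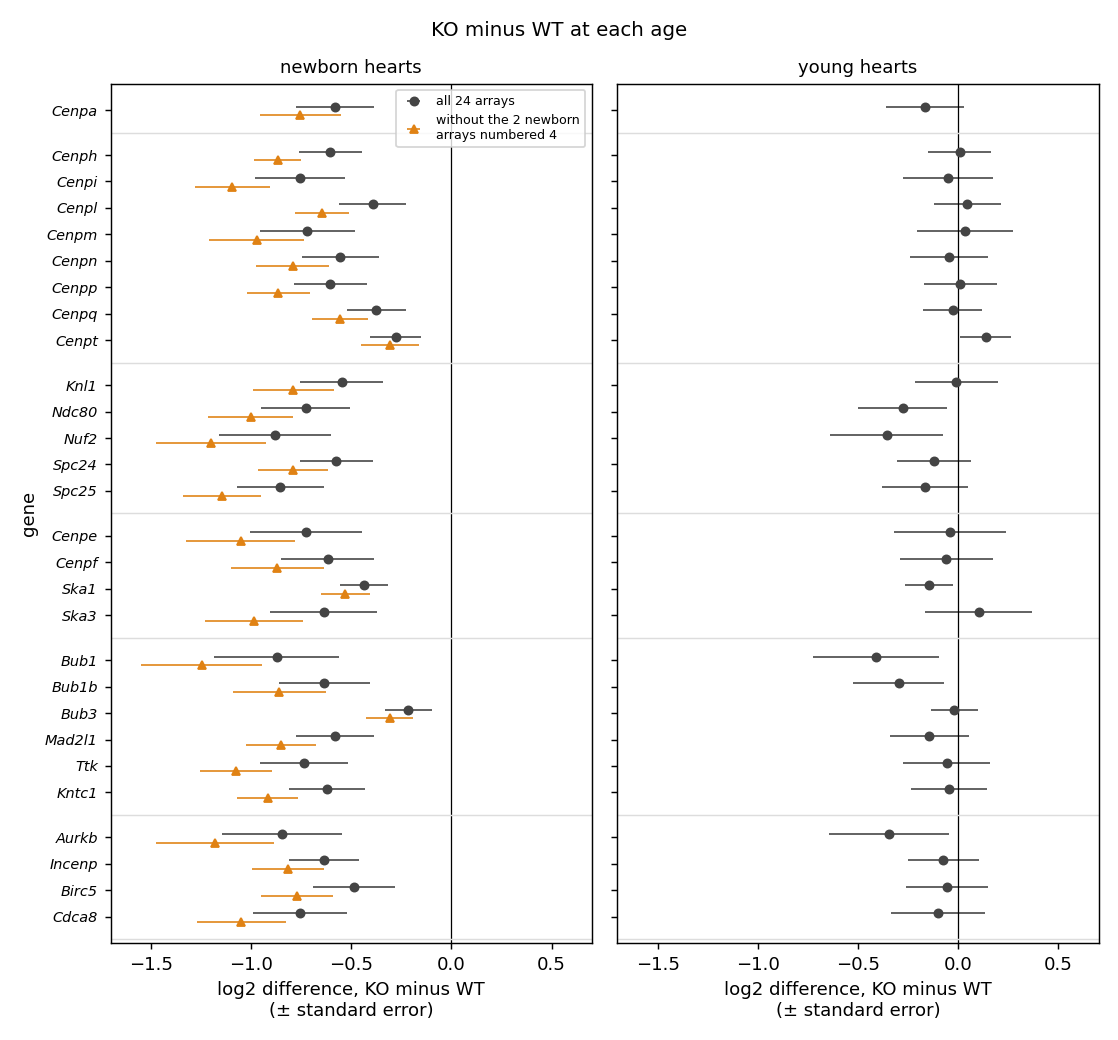
Log2 difference between KO and WT ± standard error (x axis) for each gene (y axis, in blocks by role) in newborn (left) and young hearts (right). Circles use all 24 arrays and triangles leave out the 2 newborn arrays numbered 4. All 28 newborn values lie below 0, and the young values run from -0.41 to 0.14.

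Markers of other cells were read in the same newborn arrays. The 5 endothelial markers had a mean signal of 9.45 to 9.73 in newborn WT and 9.39 to 9.66 in newborn KO, and the 4 smooth muscle markers, all measured, 8.02 to 8.76 and 8.04 to 9.50. Group means in newborn WT and KO were 9.51 and 9.55 for fibroblast, 6.66 and 6.63 for leukocyte and 8.96 and 9.22 for atrial markers. They were 7.86 and 8.13 for epicardial markers, and 6.14 and 6.08 for the erythroid list, of which 3 of 6 were measured. The part of these cells in the lower signals of newborn KO hearts was not tested.

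In young hearts no member was called, where 0.351% of all genes were called lower and 0.67% higher. The KO mean was below the WT mean for 22 members and above it for 6, where 39.8% of all genes had a lower KO mean. The median difference was -0.06 against 0.03 over all genes, and no member had an unadjusted p under 0.05, where 4.57% of all genes were lower and 10.4% higher by that measure. Bub1 had the lowest value. It read 3.01, 3.80 and 4.49 in young KO and 3.81, 4.23 and 4.42 in young WT, with a difference of -0.41 (95% interval -1.06 to 0.238, limma adjusted p = 0.579). Bub1b differed by -0.30 (95% interval -0.764 to 0.172), Nuf2 by -0.36 (95% interval -0.937 to 0.223), Ndc80 by -0.28 (95% interval -0.737 to 0.183) and Ska1 by -0.14 (95% interval -0.393 to 0.104). Cenpa read 6.92, 7.24 and 7.46 against 7.11, 7.42 and 7.64, a difference of -0.17 (95% interval -0.571 to 0.239). The highest value was 0.14, for Cenpt.

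Markers of other tissue were also read in the young groups. The 5 atrial markers, all measured, had a mean signal of 4.11 to 8.75 in WT and 5.11 to 10.2 in KO hearts of this age, and the 4 smooth muscle markers 6.90 to 9.22 and 7.32 to 9.99. Group means in young WT and KO were 8.29 and 8.86 for fibroblast, 5.99 and 6.96 for epicardial and 9.36 and 9.45 for endothelial markers. They were 7.40 and 7.50 for leukocyte and 6.12 and 5.93 for erythroid markers. Whether these levels bear on the young comparison of the 28 genes was not tested.

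The difference between the ages in the effect of the knockout was tested directly. The effect was less negative in young than in newborn hearts for 28 of 28 members, where 69.8% of all genes had a positive difference, with a median of 0.52 against 0.08. No member passed, where 0% of all genes were called in that direction, and 9 had an unadjusted p under 0.05, against 10.9% of all genes. The smallest adjusted p was that of Cenph, at 0.61 on the log2 scale (95% interval 0.154 to 1.07, limma adjusted p = 0.289). Cenpp, at 0.61, Cenpt, at 0.41, Incenp, at 0.56, and Spc25, at 0.69, came next. Without the arrays numbered 4 Cenph passed (0.87, adjusted p = 0.0222), where 0.271% of all genes did, and the median was 0.79.

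Beyond the group means, the genes varied together from heart to heart. With the group means removed, the median Pearson correlation over the 378 pairs of members was 0.901 across the 12 newborn arrays (0.238 to 0.994), which share tissue, platform and normalization. For 22 of the 28, the correlation with the mean of the other 27 was at least 0.9, and among the 18791 genes outside the set 149 (0.793%) correlated that strongly with the mean of the members. Without the arrays numbered 4 the median pair correlation was 0.887 and the count 21, with 133 (0.708%) of the genes outside. Over all 12 arrays Cdca8 and Knl1 were at 0.994 and Aurkb at 0.991. Cenpt (0.511), Cenpl (0.731) and Bub3 (0.761) followed the rest least. Across the 12 young arrays the median pair correlation was 0.388 (-0.431 to 0.94). Only Bub1b, at 0.953, then reached 0.9 with the rest, followed by Cenpe (0.894) and Nuf2 (0.883), and Spc24 was at -0.12. The SD of Nuf2 between arrays was 0.612 in newborn and 0.434 in young hearts, and that of Cenpe 0.65 and 0.369.

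**Figure D5:**
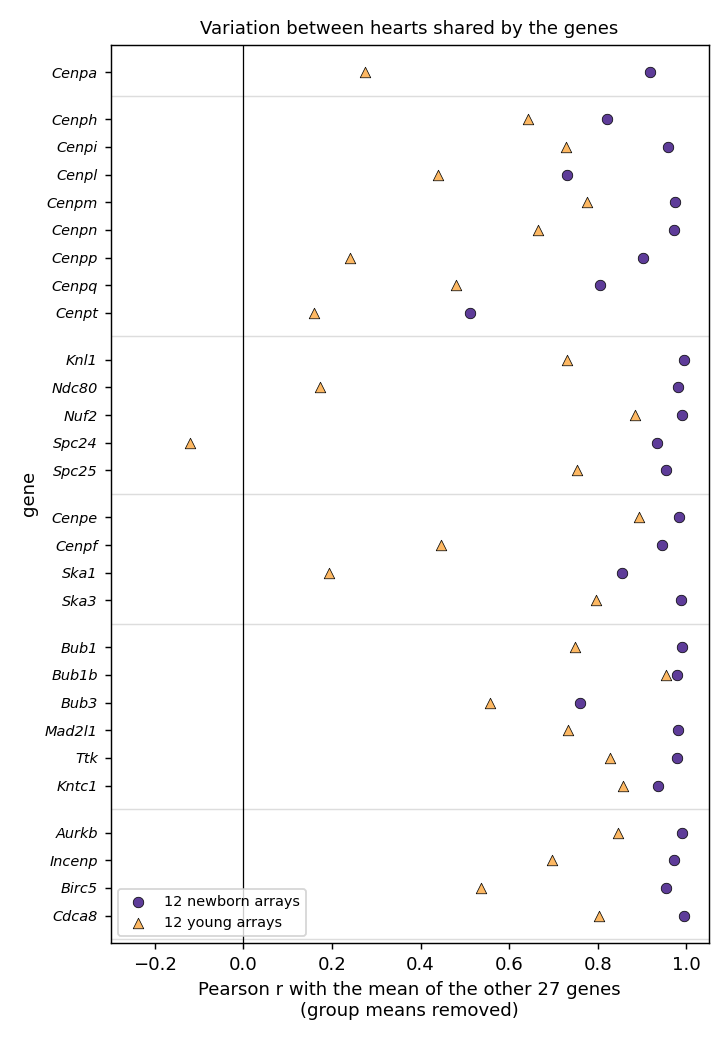
Pearson correlation of each gene (y axis, in blocks by role) with the mean of the other 27 genes (x axis), over 12 newborn arrays (circles) and 12 young arrays (triangles) after the group means were removed. In newborn hearts 22 genes reach 0.9, and in young hearts Bub1b alone.

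Other genes of the same machinery that are not members, 29 measured of 32 listed, gave a more mixed picture. In WT hearts 22 fell with age, 5 rose and 2 did not pass, where 27.9% of all genes fell and 19.2% rose. In KO hearts 16 fell and 5 rose, where 25% of all genes fell and 34% rose. The medians of the 29 were -0.68 in WT and -0.36 in KO. Their counts did not change without the arrays numbered 4. The largest falls in WT were those of Plk1, a mitotic kinase at the kinetochore (-2.67), Kif2c, a kinesin that takes microtubules apart (-2.46), and Dsn1, of the Mis12 complex that carries the KMN network (-2.41). In KO they were Plk1 (-2.11), Dsn1 (-2.11) and Kif2c (-1.97). Cenpb, which binds a repeated DNA sequence at centromeres, rose by 0.74 in WT and 0.56 in KO. Its signal was 6.18, 6.32 and 6.41 in newborn WT and 6.69, 7.10 and 7.20 in young WT, without overlap. Cenpv rose by 0.36 in WT, and Aurkc, an Aurora kinase best known from germ cells, by 0.34 in WT and 0.42 in KO. Mad2l1bp, whose product takes Mad2 out of the checkpoint complex, rose by 0.33 in KO, but did not pass without the arrays numbered 4 (0.29, adjusted p = 0.0785). In the newborn comparison of KO with WT none of the 29 passed, 15 were lower at an unadjusted p under 0.05, where 7.62% of all genes were, and the median was -0.27. Without the arrays numbered 4, 14 passed as lower, where 1.94% of all genes did, and the median was -0.39. In young hearts none passed, and the median was -0.04. At an unadjusted p under 0.05, 1 was lower and 1 higher, where 4.57% of all genes were lower and 10.4% higher.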

How the data were processed

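RNA from ventricles of 24 mice was hybridised to Affymetrix whole-transcript arrays. The authors deposited log2 signals computed by RMA (background correction, quantile normalization and probe summary); the submitters' processing notes name oligo 1.22, limma 3.14 and R 2.15. Arrays were assigned to groups and replicate numbers from their labels. Of 35017 rows, 21118 named 1 gene in the platform annotation, 1735 several and 12164 none, and 21085 of the single-gene rows matched a RefSeq gene (GRCm38.p6). The brightest single-gene row stood for each of 18819 genes. limma 3.58.1 in R 4.3.3 fitted 1 mean per group to all arrays (20 residual degrees of freedom). The test was also run on simulated data with independent noise for each gene, which does not copy the shared variation of the members. The members, lists and tests, and the choice to leave out the 2 newborn arrays numbered 4 (for correlations, added after seeing the data), were made with earlier results of these data known. Named genes were, in each comparison, the 5 largest changes per direction among called members, or the 5 smallest p-values where fewer were called, plus Cenpa, Incenp and Aurkb in newborn hearts, and up to 3 called genes per direction of the other machinery. Further members were given to describe each role. Alternatives were a filter under the 30th percentile of signal, stricter thresholds, other normalizations, variance moderation with trend, array weights, the mean of probe sets, a block for replicate number, single ages or genotypes, and leaving out arrays. Slides and scan dates were not stated.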

Additional observations from a re-analysis of the deposited data

Results flagged for a closer look

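In 4 of the 112 groups of 6 arrays examined (28 genes in 4 groups) 1 array stood apart, its gap to the next array taking up more of the group's range than Dixon's 95% critical value allows. Chance alone flags about 1 in 20 groups. Cenph in newborn WT 4 was at 3.332, where the other 5 arrays lay between 3.998 and 4.326. Cenpi in young KO 4 was at 3.229, against 2.794 to 2.935. Spc24 in young WT 2 was at 4.555, against 4.87 to 5.045. Ttk in young WT 3 was at 3.855, against 3.245 to 3.467.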

How the results depend on the processing

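With all arrays, 0 members were called lower in newborn KO. With array weights the count was 1 (Cenph, adjusted p = 0.0482), without both newborn arrays numbered 4 it was 26, and leaving out single arrays gave 0 to 5, with 5 without newborn WT 4 and 2 without newborn KO 4. The median newborn difference then ran from -0.74 to -0.46, the latter without newborn KO 6. For the difference between the ages, the count of members higher was 1 without both arrays numbered 4 and 0 otherwise. The falls with age numbered 23 to 27 in WT and 22 to 24 in KO under the alternatives run, and no named gene reversed direction. Direction was not checked for the other members. The median young difference between KO and WT ran from -0.12 to 0.0085, the latter without young WT 3. Same-numbered newborn WT and KO arrays correlated between -0.44 and 0.13 after group means were removed, and 0 of 6 WT arrays correlated best with their own number. Young ones correlated between -0.22 and 0.64, and 4 of 6 WT arrays correlated best with the KO array of their own number. The labels do not say what the numbers stand for, and the main fit did not take them as pairs. Whether same-numbered young arrays share something was not tested further. With the replicate number as a block the counts were 0 lower in newborn KO, 26 lower with age in WT and 23 in KO. No call of a named gene changed. Under the 30th percentile filter Cenph was left out and has no value. Low signals in young hearts limit what can be seen there.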

Other observations

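Across the 12 newborn arrays, the mean signal of the 28 genes was set against the mean of each of 8 marker lists for heart cell types (Pearson's r and Spearman's rho, two-sided permutation tests with 100000 resamples, adjusted over the 8 lists). Group means were not removed here, and WT and KO arrays were permuted together, so the p-values also take in the difference between the genotypes. The mean signal of the 28 genes was related to the endothelial list, with r = 0.813 (adjusted p = 0.00888) and rho = 0.769 (adjusted p = 0.0426). The coefficient was 0.812 without the 2 arrays farthest from the median of the list, 0.769 within WT and 0.691 within KO. Without the arrays numbered 4, r over the other 10 was 0.801 (adjusted p = 0.0366) and rho 0.77 (adjusted p = 0.102), but r was -0.282 within WT and 0.512 within KO, so the relation within WT rested on newborn WT 4. With the smooth muscle list r was -0.831 (adjusted p = 0.00888) and rho -0.627 (adjusted p = 0.0889), but r was -0.555 without newborn KO 5 and KO 6, so this relation leaned on those arrays. Within WT it was -0.6 and within KO -0.933. Without the arrays numbered 4 it was -0.826 (adjusted p = 0.0366), with 0.669 within WT and -0.908 within KO. The other 6 lists did not pass after adjustment, with r from -0.642 (epicardial) to 0.0951 (erythroid). What these relations have to do with the genotype was not tested.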
